A study of Mus musculus with 10 samples.

Results

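The Oct4+-only promoter regions are stretches of mouse chromatin that carried histone H3 lysine 4 trimethylation (H3K4me3) in the consensus peak list of Oct4+ nEnd and lay in neither the DP nor the Pdgfra+ consensus list. The 3 deposited lists were joined wherever they shared a base, which gave 9134 regions. Of these, 8494 overlapped a promoter, taken as 1000 bp upstream to 100 bp downstream of a transcription start site (TSS) of a protein-coding transcript on GRCm38. The Oct4+ list alone held 538 of the 8494 promoter regions (6.33%), with promoters of 572 of 21853 protein-coding genes (2.62%). The regions were therefore chosen from the presence of peaks, and their presence by population, rank in Oct4+ libraries and width are described without a test between populations.

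The cells were naive extra-embryonic endoderm (nEnd), a culture of primitive endoderm (PrE)-like cells derived from mouse embryonic stem cells and kept in RACL, an RPMI-based medium with Activin A, the GSK3 inhibitor CHIR99021 and LIF. All 10 libraries came from a single untreated OCT4-mCherry reporter line, stained for PDGFRA-APC and sorted by FACS into Oct4+ (mCherry alone, 4 libraries), DP (both colors, 3 libraries) and Pdgfra+ (APC alone, 3 libraries). The mark was mapped with CUT&Tag, where Tn5 transposase brought in by an antibody cuts DNA near marked nucleosomes, and peaks were called against an IgG control. The study calls its replicates biological, but the labels do not say which libraries came from separate cultures or sorts, so part of the spread between them may be technical.

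H3K4me3 is laid down around start sites by the SET1 and MLL methyltransferase complexes. CpG-rich promoters carry it in most cell types whether or not the gene is strongly transcribed, whereas CpG-poor, tissue-restricted promoters tend to carry it where the gene is active. In the blastocyst, the epiblast (Epi) expresses Oct4, Nanog and Sox2 and secretes FGF4, and the neighboring PrE expresses Gata6, Sox17 and Pdgfra.

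The libraries differed in how many peaks were called, with 3477 to 9144 in Oct4+, 7575 to 8836 in DP and 6510 to 10545 in Pdgfra+ nEnd. Read numbers were not used here and the depth is unknown. The Oct4+ consensus list was recovered base for base, 7860 of 7860 regions, from Oct4+ replicates 1, 2 and 4. With replicate 3 added only 7483 regions were identical, so replicate 3 is treated as a library that took no part in choosing the regions. The labels were checked against promoters of marker genes. Of 32 naive pluripotency genes, 23 to 28 had a promoter peak in each Oct4+ library, 16 to 19 in each DP library and 6 to 11 in each Pdgfra+ library. Of 22 PrE genes, the counts were 3 to 13, 19 to 21 and 18 to 20. The promoter of Pou5f1, which encodes OCT4, had a peak in 4 Oct4+, 3 DP and 0 Pdgfra+ libraries, and that of Pdgfra in 1, 3 and 3. The PrE factor Gata6 had one in 3, 3 and 3 and Sox17 in 2, 3 and 3, so these promoters did not separate the populations. Nor did the 21 formative and primed Epi genes, of which 9 to 16, 11 to 12 and 5 to 13 had a promoter peak. Fibroblast genes (15) had 1 to 3 promoter peaks in every library, mesoderm genes (9) none outside Pdgfra+ replicate 1, where 2 had one, and 2-cell genes (8) none in any library.

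Promoter sequence is shown for 7 regions with a peak in all 4 Oct4+ and no other library, and for the Nup93 region, which also had a peak in a DP and a Pdgfra+ library. Each line runs 5′ to 3′ from 250 bases upstream to 50 bases downstream of the RefSeq start (GRCm38.p6), with CpG dinucleotides in capitals. The loci are Fgf4 at chr7:144861136-144861435 (plus strand), Nr5a2 at chr1:136953581-136953880 (minus strand), Nr0b1 at chrX:86191525-86191824 (plus strand), Foxd3 at chr4:99656049-99656348 (plus strand), Trh at chr6:92244601-92244900 (minus strand), Gli2 at chr1:119053570-119053869 (minus strand), Ifitm3 at chr7:141010695-141010994 (minus strand) and Nup93 at chr8:94214314-94214613 (plus strand).
Fgf4: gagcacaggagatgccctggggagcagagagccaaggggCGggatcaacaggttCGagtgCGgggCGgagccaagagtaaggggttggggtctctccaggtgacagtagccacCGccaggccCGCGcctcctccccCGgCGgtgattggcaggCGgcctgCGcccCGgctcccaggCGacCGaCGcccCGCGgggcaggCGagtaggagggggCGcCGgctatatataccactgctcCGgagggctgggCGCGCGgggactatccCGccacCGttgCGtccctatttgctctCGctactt
Nr5a2: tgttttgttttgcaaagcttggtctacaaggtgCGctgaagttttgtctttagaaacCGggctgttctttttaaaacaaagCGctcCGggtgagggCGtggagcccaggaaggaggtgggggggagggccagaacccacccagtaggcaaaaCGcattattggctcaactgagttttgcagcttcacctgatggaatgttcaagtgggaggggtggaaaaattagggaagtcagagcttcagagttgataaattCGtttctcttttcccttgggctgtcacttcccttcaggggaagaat
Nr0b1: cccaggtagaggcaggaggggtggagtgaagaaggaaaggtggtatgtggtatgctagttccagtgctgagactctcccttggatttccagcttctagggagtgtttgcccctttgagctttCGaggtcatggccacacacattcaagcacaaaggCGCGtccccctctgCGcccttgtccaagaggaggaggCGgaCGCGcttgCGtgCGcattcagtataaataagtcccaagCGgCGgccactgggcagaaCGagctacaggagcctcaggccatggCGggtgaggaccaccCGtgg
Foxd3: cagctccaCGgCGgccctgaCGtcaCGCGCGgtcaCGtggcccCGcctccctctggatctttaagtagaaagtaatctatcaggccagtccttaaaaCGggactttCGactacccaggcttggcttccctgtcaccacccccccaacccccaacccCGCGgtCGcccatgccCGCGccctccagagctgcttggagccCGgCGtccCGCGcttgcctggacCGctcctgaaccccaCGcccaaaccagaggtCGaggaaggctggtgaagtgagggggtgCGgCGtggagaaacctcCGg
Trh: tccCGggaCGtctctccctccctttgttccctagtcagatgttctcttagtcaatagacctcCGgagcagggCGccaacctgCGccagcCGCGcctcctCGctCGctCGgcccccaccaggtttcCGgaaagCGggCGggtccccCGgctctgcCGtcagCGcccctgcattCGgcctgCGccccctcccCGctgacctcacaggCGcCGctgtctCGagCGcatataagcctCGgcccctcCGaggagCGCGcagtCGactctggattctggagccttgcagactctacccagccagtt
Gli2: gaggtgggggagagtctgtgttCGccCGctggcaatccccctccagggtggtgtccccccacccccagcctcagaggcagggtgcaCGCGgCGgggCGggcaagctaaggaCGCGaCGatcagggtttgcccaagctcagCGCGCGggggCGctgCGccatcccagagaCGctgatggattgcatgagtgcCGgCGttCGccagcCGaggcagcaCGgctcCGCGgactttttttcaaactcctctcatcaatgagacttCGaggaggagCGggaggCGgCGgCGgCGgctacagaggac
Ifitm3: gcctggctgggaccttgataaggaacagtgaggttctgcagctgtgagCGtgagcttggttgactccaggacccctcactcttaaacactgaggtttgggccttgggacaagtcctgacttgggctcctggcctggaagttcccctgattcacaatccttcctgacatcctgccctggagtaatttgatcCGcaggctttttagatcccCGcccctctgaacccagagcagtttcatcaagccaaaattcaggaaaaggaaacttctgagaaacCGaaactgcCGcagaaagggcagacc
Nup93: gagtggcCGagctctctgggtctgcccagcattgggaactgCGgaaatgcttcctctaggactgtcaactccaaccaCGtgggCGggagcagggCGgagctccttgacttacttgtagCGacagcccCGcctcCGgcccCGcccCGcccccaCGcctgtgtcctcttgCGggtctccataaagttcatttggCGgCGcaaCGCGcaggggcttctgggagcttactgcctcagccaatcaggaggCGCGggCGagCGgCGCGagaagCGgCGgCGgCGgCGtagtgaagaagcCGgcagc

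These 300 bases held 28 CpGs at Fgf4, Trh, Gli2 and Nup93, 25 at Foxd3, 14 at Nr0b1, 7 at Nr5a2 and 5 at Ifitm3. The median over 32851 RefSeq promoters of the same length was 7, with quartiles of 3 and 20. The promoters printed here thus ran from at or just below that median (Nr5a2, Ifitm3) to above the upper quartile, and the CpG content of the whole set is taken up after the gene groups.

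Peaks over the Oct4+-only regions were concentrated in the Oct4+ libraries with the most peaks. A peak was present at 538 regions in Oct4+ replicate 1, at 535 in replicate 2, at 139 in replicate 4 and at 56 in replicate 3. For all 7224 promoter regions of the Oct4+ list, the share was 61.5% in replicate 4 and 44.4% in replicate 3, against 25.8% and 10.4% of the Oct4+-only regions. A total of 402 regions (74.7%) had a peak in exactly 2 Oct4+ libraries, which were replicates 1 and 2 at 399 of them, 80 had one in 3 and 56 in all 4. No region had a peak in replicate 3 without one in replicate 4. The 3 regions without a peak in replicate 2 had one in replicates 1 and 4.

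**Figure D1:**
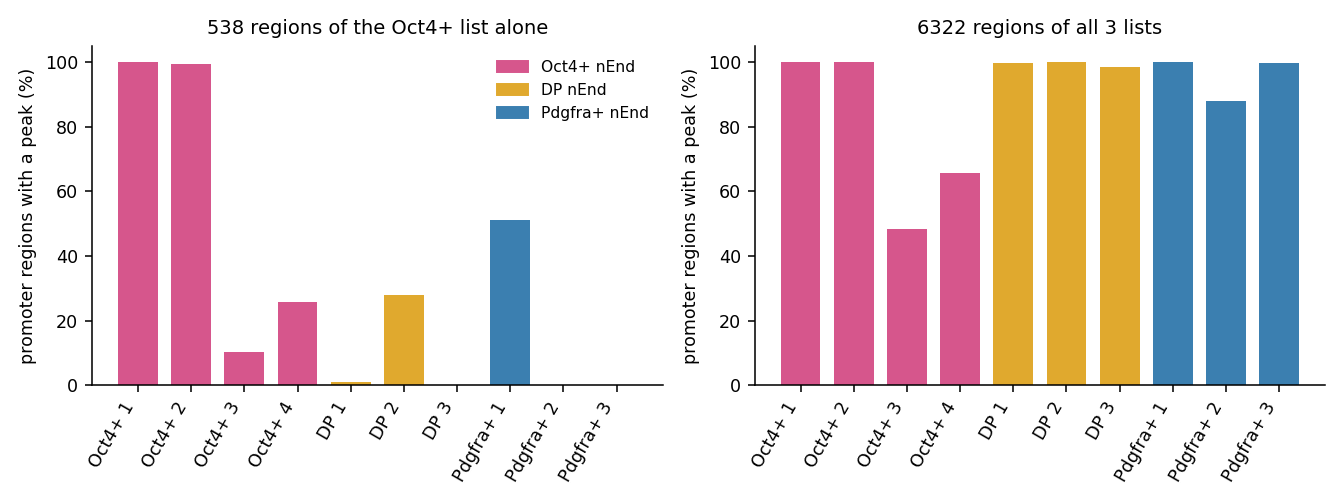
Share of promoter regions with a peak (%, y axis) in each of the 10 libraries, for the 538 regions of the Oct4+ list alone (left) and the 6322 regions of all 3 lists (right); bars are single libraries, so no error bar is drawn. Oct4+-only regions range from 10.4% in Oct4+ replicate 3 to 100% in replicate 1, and reach 51.3% in Pdgfra+ replicate 1 and 28.1% in DP replicate 2.

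Absence from a consensus list was not absence of a peak. Pdgfra+ replicate 1 had a peak at 276 of the 538 regions (51.3%), DP replicate 2 at 151 (28.1%) and DP replicate 1 at 6, and the other 3 DP and Pdgfra+ libraries had none. Pdgfra+ replicate 1 and DP replicate 2 are the libraries of their populations with the most peaks, 10545 and 8836. In all, 284 regions (52.8%) had a peak in 1 or 2 of the 6 DP and Pdgfra+ libraries, 144 of them in both Pdgfra+ replicate 1 and DP replicate 2, and 254 (47.2%) had a peak in none. The number of peaks called in a library moves with these counts, and its part in them was not tested.

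Where such a peak was called, it ranked low in its library, which the rule favors, since the peak had to be missing from the other libraries of its population. Ranks are given as percentiles, the share of the peaks of a library whose total signal (the summed coverage over the peak) is at or below that of the peak. The median percentile was 4.54 over the 151 peaks of DP replicate 2 and 14.6 over the 276 peaks of Pdgfra+ replicate 1, against 62.2 and 67.6 for the regions of all 3 lists in the same libraries. In Oct4+ replicate 1, whose presence the rule used, the same regions had medians of 22.7 and 20.96, and 22 of 151 (14.6%) ranked higher in DP replicate 2 and 89 of 276 (32.2%) in Pdgfra+ replicate 1. Read as coverage, which the authors did not scale between libraries, the order was the opposite. The highest coverage in Pdgfra+ replicate 1 exceeded that in Oct4+ replicate 1 at 226 of the 276 regions (81.9%), and that in DP replicate 2 did so at 133 of 151 (88.1%). For regions of all 3 lists the same held at 99.7% in both libraries, whose peaks had a median highest coverage of 143 and 144 against 59 in Oct4+ replicate 1.

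The number of Oct4+-only regions with a peak was 52.3 ± 85.5 in DP libraries (SD, n = 3) and 92 ± 159 in Pdgfra+ libraries (SD, n = 3), a difference of -39.7 regions, or of 52.3 without Pdgfra+ replicate 1. The rule capped these counts by requiring absence from both consensus lists, so they are a description and no test is read from them. Over all 8494 promoter regions the counts were 7652 ± 436 and 7247 ± 1019 (2-sided exact permutation test, p = 0.7, where 3 against 3 libraries cannot go below 0.1). Peaks of these same libraries helped to define the 8494 regions, so no conclusion is drawn from this test.

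Oct4+ replicate 3 gives a check on the regions by a library that did not choose them. It had a peak at 56 of 538 Oct4+-only regions (10.4%, 95% exact binomial interval 7.96 to 13.3%), at 91 of 332 regions of the Oct4+ and DP lists (27.4%, 22.7 to 32.5%), and at 3060 of 6322 regions of all 3 lists (48.4%, 47.2 to 49.6%). The intervals cover counting error only. The Oct4+-only regions were also lower in rank: when the 7224 promoter regions were split into 4 equal bins by their mean percentile in replicates 1 and 2, 364 of the 538 (67.7%) fell in bin 1, the lowest, and 18 (3.35%) in bin 4. Within bins the shares lay closer, with Oct4+-only regions lower in bins 1 to 3. In bin 1 0.275% of Oct4+-only regions and 0.393% of regions of all 3 lists had a peak in replicate 3, in bin 2 10.3% and 13.9%, in bin 3 53.1% and 65.9%, and in bin 4 100% of 18 and 98.6% of 1733. The exact intervals of the paired shares overlapped in every bin, and in bin 3 they ran from 38.3 to 67.5% and from 63.6 to 68.1%. Replicate 3 is a single library, so this overlap is no test of a difference between the sets. Replicate 4 gave 6.32%, 51.4%, 87.8% and 100% against 5.66%, 47.5%, 92.5% and 99.9%, although it took part in the consensus list. Among regions with a peak in replicates 1, 2 and 4, replicate 3 had one at 41.2% of 136 Oct4+-only regions (32.8 to 49.9%) and at 73.0% of 4144 regions of all 3 lists (71.6 to 74.3%), so this match left a wider gap.

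**Figure D2:**
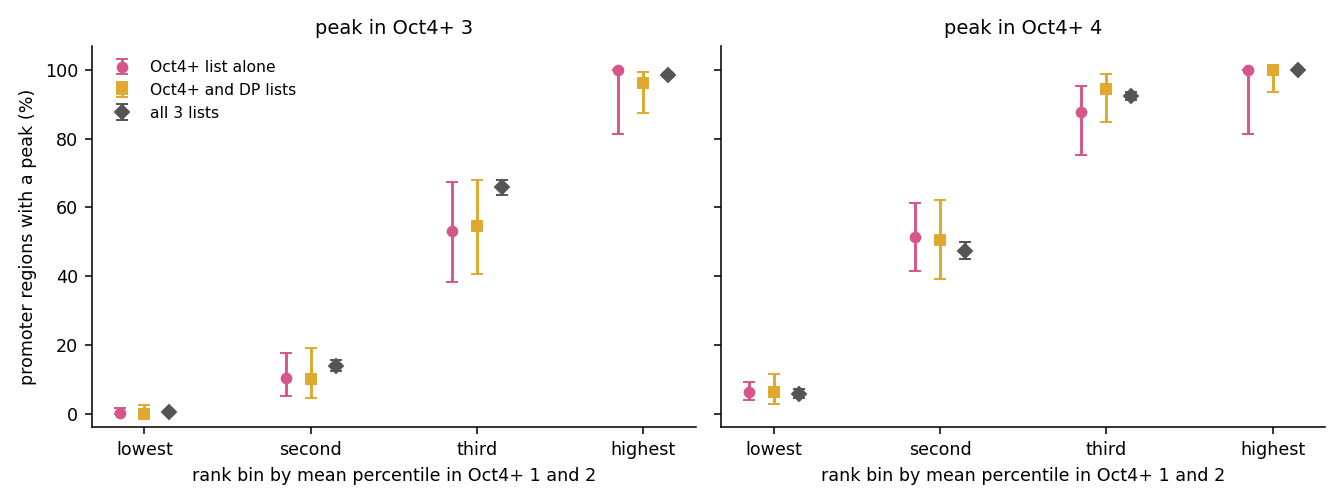
Share of promoter regions with a peak (%, y axis) in Oct4+ replicate 3 (left) and replicate 4 (right) by rank bin of the mean percentile in replicates 1 and 2 (x axis, lowest to highest), for the Oct4+ list alone, the Oct4+ and DP lists, and all 3 lists; error bars are 95% exact binomial intervals. The share rises from under 1% to over 96% in replicate 3 for each set, and in the next to highest bin of replicate 3 Oct4+-only regions lie at 53.1% against 65.9% for all 3 lists.

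The clearest members were 45 regions with a peak in all 4 Oct4+ libraries and in none of the 6 others, 0.53% of the 8494 promoter regions and 8.36% of the 538. Among them were genes of the naive Epi program, Fgf4, Prdm14, Nr5a2 and Nr0b1, together with Tfap2c, Foxd3, Gli2, Trh and Ifitm3. Their median percentile was 74.1 in Oct4+ replicate 1, 61.1 in replicate 2, 51.3 in replicate 4 and 27.7 in replicate 3. Replicate 1 gave the highest percentile at 39 of the 45 and replicate 3 the lowest at 42, but percentiles come from lists of 9144, 8098, 3477 and 4887 peaks in replicates 1 to 4. Counted from the strongest peak of each library, the median places were 2368, 3151, 2514 and 2381, and replicate 3 was the farthest from the top at 10 of the 45. A place cannot exceed the length of its list, so neither scale can tell whether the peaks of replicate 3 were weaker.

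**Figure D3:**
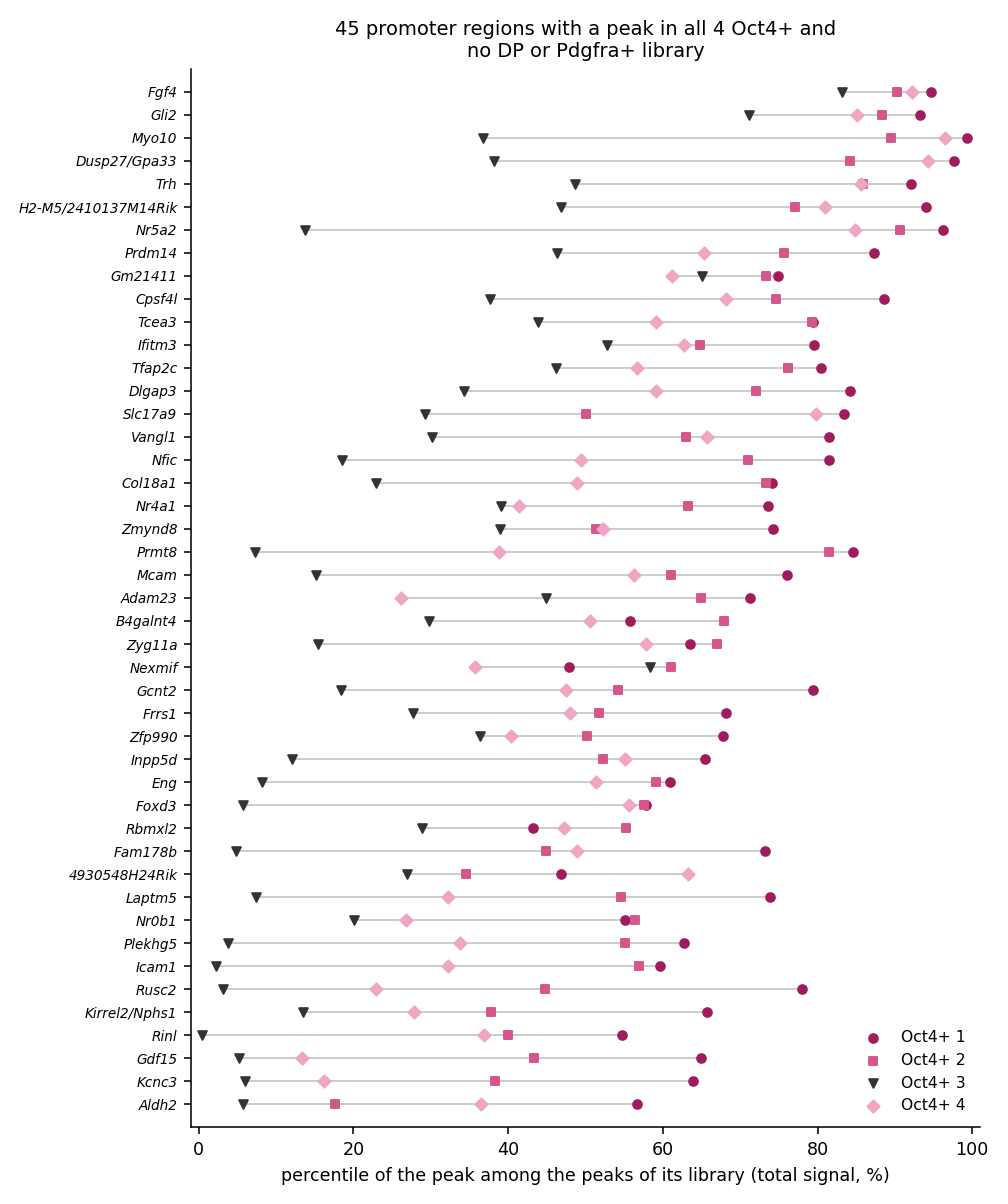
Percentile of the peak by total signal (%, x axis) in each of the 4 Oct4+ libraries for the 45 promoter regions with a peak in all of them and in no DP or Pdgfra+ library, ordered by mean percentile; each point is one library and gray lines span the range. Fgf4 (83.2 to 94.7) and Gli2 (71.1 to 93.2) lie high in all 4, and Oct4+ replicate 3, which has the shortest peak list, gives the lowest percentile at 42 of the 45.

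Fgf4, the Epi-derived growth factor that drives PrE fate through FGF receptors and ERK, had the highest mean percentile of the 45, 90.1. Its region (chr7:144856320-144865877) ranked at percentiles 94.7, 90.2, 83.2 and 92.2 in Oct4+ replicates 1 to 4. Fgf4 was high in every Oct4+ library, with a highest coverage of 84, 75, 33 and 61, and it kept a mean percentile of 83.4 when peaks were ranked by highest coverage instead of total signal. Gli2, a transcription factor of the Hedgehog pathway, followed at 93.2, 88.3, 71.1 and 85.1 (chr1:119044659-119057620). Trh, the precursor of thyrotropin-releasing hormone, ranked at 92.03, 85.8, 48.6 and 85.6 (chr6:92240592-92250283). Counted from the strongest peak, Gli2 was at places 622, 950, 1005 and 729 and Trh at 730, 1149, 1788 and 706. Their rank depended on the measure: by highest coverage the mean percentile over the 4 libraries was 45.3 for Gli2 (84.4 by total signal) and 47.2 for Trh (78.0).

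Regulators of naive pluripotency and of the Epi spanned a wide range of ranks. Prdm14, a PR-domain repressor of FGF receptor signaling and of de novo DNA methylation, ranked at 87.3, 75.7, 46.3 and 65.3. Nr5a2, an orphan nuclear receptor that activates Oct4, ranked at 96.2, 90.7, 13.7 and 84.8, at places 348, 758, 3000 and 742 from the strongest peak, so that replicate 3 stood apart by either count. Nr0b1, an X-linked orphan receptor (Dax1) of the same circuit, ranked at 55.1, 56.4, 20.1 and 26.8. Foxd3, a forkhead factor of the Epi and neural crest, ranked at 57.8, 57.6, 5.72 and 55.6, at places 3861, 3436, 3279 and 2169. Replicate 3 lay within the range of the other libraries by place, but place 3279 was near the end of its 3477 peaks. Tfap2c, an AP-2 factor of trophectoderm (TE) and germ cells, ranked at 80.4, 76.2, 46.1 and 56.6. None of these 5 promoters had a peak in any DP or Pdgfra+ library. By highest coverage the mean percentiles were lower, at 33.5 for Prdm14 (68.7 by total signal), 46.4 for Nr5a2 (71.4), 18.2 for Nr0b1 (39.6), 16.1 for Foxd3 (44.2) and 9.52 for Tfap2c (64.8).

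The other regions named by rank belonged to a mix of functions. Ifitm3, an interferon-induced membrane protein also known from early germ cells, ranked between 52.8 and 79.5 in the 4 libraries. Tcea3, a transcript elongation factor, ranked between 43.9 and 79.4, and Nr4a1, an immediate-early nuclear receptor, between 39.1 and 73.6. Zmynd8, a reader of modified histones, ranked between 38.9 and 74.2, and a separate upstream region of the same gene lay in 3 Oct4+ libraries. Vangl1, a component of planar cell polarity, ranged from 30.1 to 81.5. Nexmif, an X-linked gene with a role in neurons, was one of 3 regions for which replicate 3 was not the lowest library (47.8, 61.0, 58.3 and 35.7). Zfp990 (36.4 to 67.8) and the predicted gene Gm21411 (61.2 to 74.9) lie on chromosome 4 among closely related gene copies, where reads may be shared between copies, so both are uncertain. By highest coverage the mean percentile was 12.5 for Zmynd8 (54.2 by total signal), 19.6 for Vangl1 (60.1), 32.8 for Ifitm3 (64.9), 39.1 for Tcea3 (65.4), 30.6 for Nexmif (50.7) and 30.3 for Zfp990 (48.7), while Gm21411 kept 66.1 (68.6).

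A further 47 regions had a peak in 3 Oct4+ libraries and in none of the other populations, which gives 92 regions in 3 or 4 Oct4+ libraries with no other peak (17.1% of the 538). The Nodal antagonists Lefty1 and Lefty2, neighbors on chromosome 1, were both among these 47. Lefty1 ranked at 42.2, 30.9 and 26.4 in replicates 1, 2 and 4, and Lefty2 at 34.6, 49.3 and 44.1. Otx2, a regulator of the formative Epi, ranked at 64.1, 23.5 and 38.4. Sox11, a neural SoxC factor, ranked at 40.3, 38.3 and 0.737, so its peak in replicate 4 was among the weakest of that library. The mean percentiles by highest coverage were 3.91 for Lefty1, 13.5 for Lefty2, 22.3 for Otx2 and 4.38 for Sox11, against 33.2, 42.7, 42.0 and 26.5 by total signal.

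Of the 15 gene lists for pathways and cell types, naive pluripotency had the most genes with an Oct4+-only promoter, also as a share of its size. Its 32 genes divided into 9 with an Oct4+-only promoter region, 10 whose region lay in the Oct4+ and DP lists, 8 in all 3 lists and 5 in no Oct4+ region. Over all protein-coding genes 2.62% had an Oct4+-only promoter and 39.3% a promoter in the Oct4+ list, so 27 of 32 and 9 of 32 (28.1%) describe a list that was chosen for its place in this cell type. The 9 were Fgf4, Prdm14, Nr5a2, Nr0b1, Tfcp2l1, Dppa5a, Lefty1, Lefty2 and Tcl1, 4 of them with the full pattern. The core factors were elsewhere: Nanog, Sox2, Esrrb, Klf2 and Zfp42 lay in the Oct4+ and DP lists, and Pou5f1 in a region of all 3 lists. Joined regions can hold neighboring promoters, and the Pou5f1 promoter window itself had a peak in 0 Pdgfra+ libraries.

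**Figure D4:**
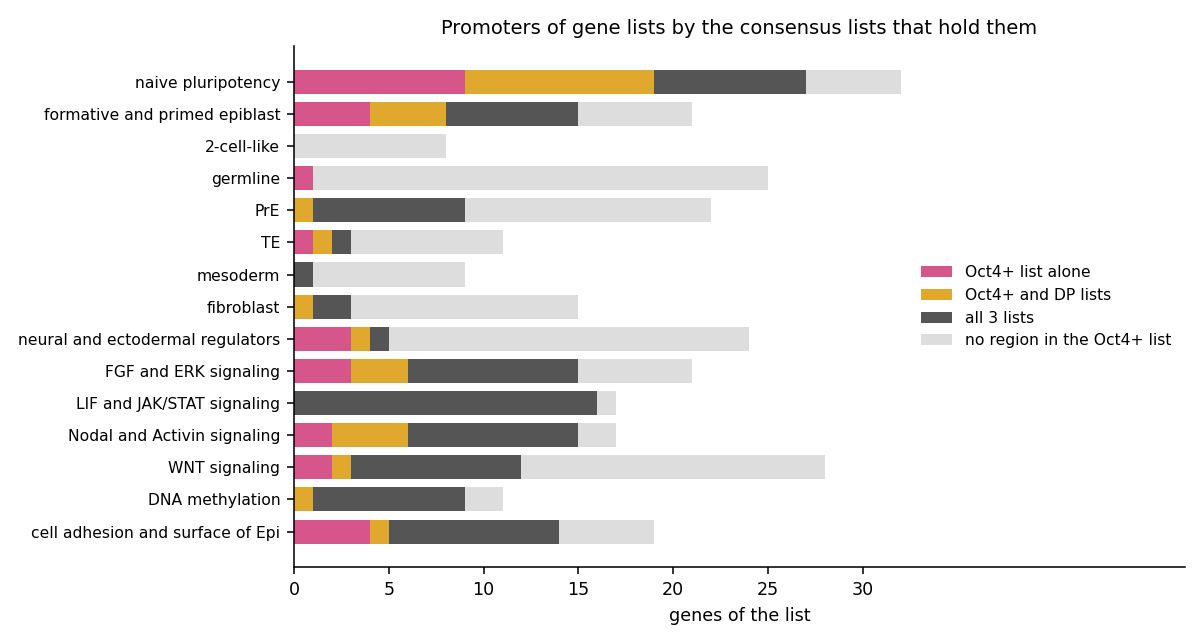
Number of genes (x axis) of each of 15 gene lists (y axis) by the consensus lists that hold a region at their promoter; bars are stacked counts of genes. Naive pluripotency has 9 genes in the Oct4+ list alone and 10 in the Oct4+ and DP lists, and the LIF and JAK/STAT list has 16 of 17 genes in all 3 lists.

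Some pluripotency promoters of the Oct4+ list alone had a peak elsewhere. Tfcp2l1, a naive factor downstream of LIF, ranked at 67.2, 58.0, 28.4 and 47.7 in Oct4+ replicates 1 to 4, and had weak peaks in DP replicate 1 (7.9) and Pdgfra+ replicate 1 (9.92). Dppa5a, an RNA-binding protein of pluripotent cells, ranked at 86.5, 67.9 and 59.8 in replicates 1, 2 and 4, had none in replicate 3, and had a peak at percentile 3.2 in DP replicate 2. Tcl1, a coactivator of AKT, was found in replicates 1 and 2 alone (43.4 and 22.5). Ranked by highest coverage, the mean percentile was 24.4 for Tfcp2l1 (50.3 by total signal), 57.0 for Dppa5a (71.4) and 12.4 for Tcl1 (32.9).

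Formative and primed Epi genes were represented by 4 of 21, namely Otx2, Foxd3, Pou3f1 and Lef1, with 4 more in the Oct4+ and DP lists and 7 in all 3 lists. Pou3f1, a POU factor of the formative Epi, ranked at 33.1 and 9.03 in Oct4+ replicates 1 and 2 and at 3.32 and 15.9 in DP replicate 2 and Pdgfra+ replicate 1. Lef1, a nuclear effector of WNT, ranked at 15.8 and 18.004, against 15.4 in Pdgfra+ replicate 1. For Pou3f1 the ranks in Oct4+ and in the other populations overlapped, and for Lef1 the single other rank lay just below both Oct4+ ranks. Sox1, Sox11 and Ncam1 were the 3 of 24 neural and ectodermal genes, with Sox1 at 17.7 and 1.22 and Ncam1, a cell adhesion molecule, at 41.2 and 25.8 in replicates 1 and 2. Mean percentiles by highest coverage were 4.09 for Pou3f1 (21.05 by total signal), 2.51 for Lef1 (16.9), 10.3 for Ncam1 (33.5) and 1.32 for Sox1 (9.45).

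Signaling lists contributed 7 genes, Fgf4, Fgfr1, Etv1, Lefty1, Lefty2, Wnt3a and Lef1. FGF and ERK genes contributed 3 of 21, Fgf4 as ligand, Fgfr1 as receptor and Etv1 as ETS-family target, with 3 in the Oct4+ and DP lists and 9 in all 3. Fgfr1 ranked at 56.0 and 54.2 and had no peak in replicates 3 and 4. Etv1 ranked at 72.9 and 67.4 in Oct4+ replicates 1 and 2 and at 10.3 and 6.19 in DP replicate 2 and Pdgfra+ replicate 1. Replicates 3 and 4 lacked both peaks. By highest coverage the mean percentile of Etv1 was 28.2 (70.2 by total signal) and that of Fgfr1 48.1 (55.1). Nodal and Activin genes contributed Lefty1 and Lefty2 (2 of 17) and WNT genes Wnt3a and Lef1 (2 of 28), with Wnt3a, a WNT ligand, at 8.51 and 0.482. No LIF and JAK/STAT gene (0 of 17) and no DNA methylation gene (0 of 11) was included, counts that lie near the 2.62% over all genes.

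Adhesion and surface genes of the Epi contributed 4 of 19. Icam1, an intercellular adhesion molecule, had the full pattern at 59.7, 56.9, 2.27 and 32.2. Fut9, which makes the SSEA-1 epitope, ranked at 24.0 and 23.3, Cldn3, a tight junction protein, at 19.2 and 7.58, and the integrin Itga9 at 7.73 and 2.62, all in replicates 1 and 2 alone. Among markers of other cell types, 0 of 22 PrE, 0 of 9 mesoderm, 0 of 15 fibroblast and 0 of 8 2-cell genes had an Oct4+-only promoter, which for lists of this size is near the 2.62% over all genes and sets the regions apart in no way. TE genes contributed Tfap2c alone (1 of 11) and germline genes Stag3 (1 of 25), a meiotic cohesin subunit whose region also holds the promoter of Gpc2.

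Genes that the study lists as OCT4 targets enriched in its Oct4+ single-cell cluster were also matched, by name only. Of 358 such genes 59 (16.5%) had an Oct4+-only promoter region, 12 with the full pattern, beside 10 of 110 for its DP cluster and 1 of 25 for its Pdgfra+ clusters. Of all genes 2.62% had one. The lists were drawn up by the study from cells of the same kind of culture and are not independent evidence. The 59 include Fgf4, Gli2, Foxd3 and Dlgap3.

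The widest Oct4+-only regions included genes with another marked start elsewhere. Widths ran from 1954 to 27372 bp. Myo10, an unconventional myosin of filopodia, was the widest, on chromosome 15 (chr15:25750463-25777834), at percentiles 99.3, 89.5, 36.7 and 96.5. Another start of Myo10, 130436 bp away, lay in both the DP and Pdgfra+ lists, so the Oct4+-only mark was at a downstream start of a gene marked in all 3 populations. Rbpj, the DNA-binding effector of Notch signaling, had a 19068-bp region at 97.9, 96.5, 91.3 and 95.7, the highest lowest percentile of the set. By highest coverage the mean percentile of Rbpj was 70.1 and that of Myo10 23.7, against 95.3 and 80.5 by total signal. Rbpj had a weak peak in DP replicate 2 (13.7), and another Rbpj start 34380 bp away lay in both other lists. In all, 48 of 538 regions (8.92%) belonged to a gene with another start in both other lists, among them Setd1b, Dab2ip, Nfic and Vangl1.

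Shared and neighboring promoters were few. A single gene was served by 502 regions, and 36 (6.69%) held promoters of 2 or more genes, beside 20.6% of regions of all 3 lists. H2-M5, a nonclassical histocompatibility gene, shared its 23100-bp region with a RIKEN transcript, and Dusp27 shared its 17471-bp region with Gpa33. In these the mark cannot be assigned to either gene. Another 43 regions (7.99%) lay within 5000 bp of a region of the DP or Pdgfra+ list, with a median gap of 50106.5 bp over the 538.

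Members with 2 Oct4+ and 2 other libraries were closest to leaving the set, and there were 126 of them. Just inside, the 3 of lowest mean Oct4+ percentile by total signal were Nup93, Srfbp1 and Isoc1, while Etv1 with the same pattern ranked at 72.9 and 67.4. By highest coverage the mean percentile was 14.7 for Nup93 (0.869 by total signal), 4.23 for Srfbp1 (2.98) and 17.8 for Isoc1 (3.07). Pou3f1 (4.09) and the region of Gpc2 and Stag3 (4.52), with the same pattern, then lay below Nup93 and Isoc1. Nup93, a nuclear pore subunit, ranked at 1.28 and 0.457 in Oct4+ replicates 1 and 2 and at 1.75 and 27.2 in DP replicate 2 and Pdgfra+ replicate 1, so it ranked highest in a Pdgfra+ library. Just outside, the 3 chosen for the highest Oct4+ ranks were Tdh, a region of Ifitm2 and Ifitm5, and Grik3, each in all 4 Oct4+ libraries and in 2 DP libraries, so the ranks inside and outside differ by choice. Tdh, the threonine dehydrogenase of embryonic stem cells, ranked at 98.6, 95.2, 82.5 and 96.1 in Oct4+ libraries and at 29.6 and 11.2 in DP replicates 2 and 3. Tdh thus ranked above Fgf4 in replicates 1, 2 and 4 and lay outside the set through its DP peaks.

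Some peaks of high total signal were also missing from Oct4+ replicate 3. By mean percentile over the libraries with a peak, the first 5 were Dppa5a, Etv1, Slc38a4, Def6 and Ninj2, a measure that favors regions also missing from replicate 4. Foxp1, for example, stood above Def6 in replicates 1 and 2, at 77.3 and 67.3, but its peak in replicate 4 was at 22.5. Among the 5, Slc38a4, an amino acid transporter, ranked at 86.9, 67.6 and 45.1 in replicates 1, 2 and 4, and Def6 at 69.6 and 56.7 in replicates 1 and 2. By highest coverage the mean percentile was 60.3 for Def6 and 57.0 for Dppa5a (63.1 and 71.4 by total signal), but 42.0 for Slc38a4 (66.5) and 16.0 for Ninj2 (61.1).

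Width and CpG content set the full-pattern regions apart from the rest by description. The median width was 4023.5 bp for the 538 regions (quartiles 3285.5 and 5303), 7109 bp for the 45 and 4533 bp for regions of all 3 lists. Regions in 2 Oct4+ libraries had a median of 3739.5 bp, those in 3 of 5413.5 bp and those in 4 of 7122 bp. Width goes with rank through the total signal, which sums over the peak. These regions join the peaks of several libraries, so width can also grow with the number of libraries that have one. By single-library peaks in replicates 1 to 4, the 45 had medians of 6758, 4977, 3890 and 5738 bp. Regions of all 3 lists had 4161.5, 3435, 3472 and 4030 bp. The summit lay downstream of the nearest start at 81.2% of the 538 regions, at a median of 224 bp, and at 84.4% of the 45, at 360 bp, beside 76.7% and 150 bp for regions of all 3 lists. The share was as high for regions of the Oct4+ and DP lists (82.5%, 200 bp) and of the Oct4+ and Pdgfra+ lists (84.4%, 187 bp).

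CpG content did not enter the rule. Over the 1101-bp promoter window, the ratio of observed to expected CpG had a median of 0.528 for the 538 regions, 0.593 for regions of the Oct4+ and DP lists, 0.694 for regions of all 3 lists and 0.405 for all 21670 promoter windows. The 45 full-pattern regions had a median of 0.355, and CpG-rich windows (ratio over 0.6 and GC over 50%) made up 7 of them (15.6%), against 29.0% of the 538, 61.3% of regions of all 3 lists and 21.4% of all promoters. Ranges were wide, with Gli2 (0.726) and Foxd3 (0.739) in the full-pattern group beside Zfp990 (0.075). The 254 regions without a peak in the other populations had a median of 0.467 and the 284 with one 0.566. Median GC content was 53.0% for the 538 and 54.7% for regions of all 3 lists.

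**Figure D5:**
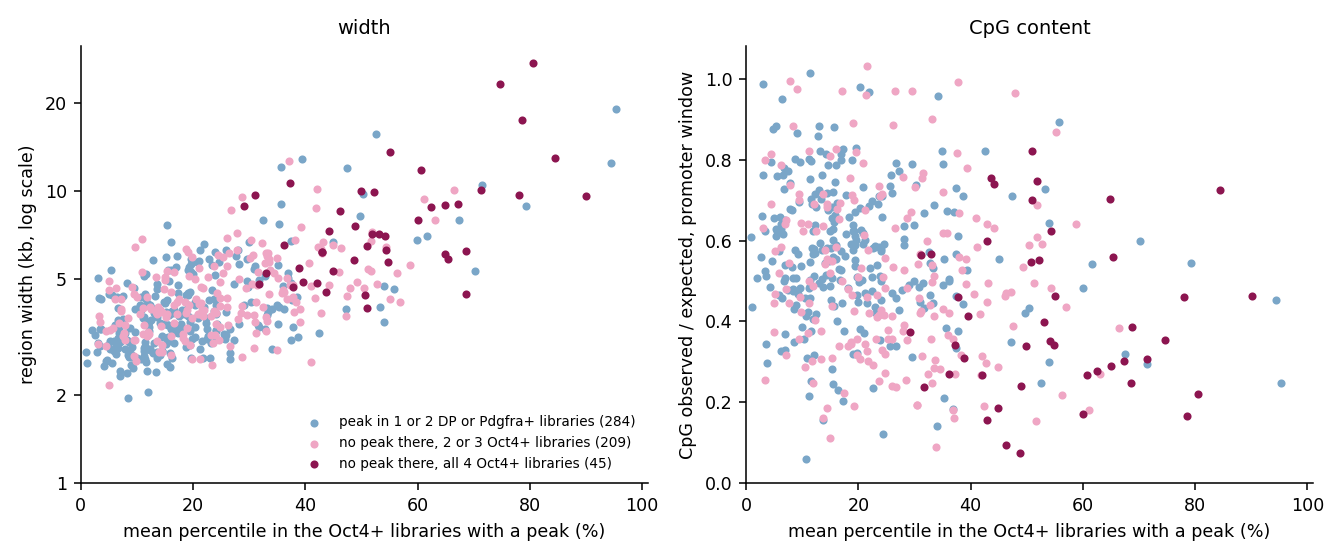
Region width (kb, log scale, left) and observed over expected CpG of the promoter window (right) against the mean percentile in the Oct4+ libraries with a peak (%, x axis); each point is one of the 538 regions, colored by whether DP or Pdgfra+ libraries had a peak (284), had none (209) or had none with all 4 Oct4+ libraries marked (45). Width rises with percentile, and the 45 have a median ratio of 0.355 against 0.528 over all 538.

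Short motifs were searched as exact letters on both strands of the same windows, as a description of sequence and not of binding. The ESRRB motif TCAAGGTCA was present in 28 of 538 windows (5.2%), 4 of the 45 (8.89%) and 2.76% of all promoters; Tfcp2l1, Nr4a1 and Tcf15 held it. The POU octamer ATGCAAAT was present in 5.02% of the 538, 7.09% of the 254 without a DP or Pdgfra+ peak and 6.67% of the 45, against 4.14% of regions of all 3 lists and 5.92% of all promoters. The SOX motif CATTGTT was present in 9.67%, against 9.33% and 14.1%, and the OCT4-SOX2 composite motif, which contains the octamer, in none of these or of all 21670 promoter windows. Motifs of broadly active promoters differed with the presence of peaks elsewhere. The YY1 motif AAGATGGCG was in 1 of the 254 windows without a DP or Pdgfra+ peak and in 12 of the 284 with one (4.23%), beside 7.13% of regions of all 3 lists and 2.8% of all promoters. The NRF1 motif was in 0 of the 254 and 8 of the 284, and the E-box TCACGTGA in 1 and 10. The shares among all promoters were 1.49% and 1.8%. The difference between these groups was not tested.

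The content of the set depended on how many peaks each library contributed. When every library was cut to its 3477 strongest peaks, the number of peaks in the smallest library, and the lists were rebuilt, 603 promoter regions were Oct4+-only. Only 54 of the 603 (35 of the 45 full-pattern regions among them) were in the set of 538, while 457 came from regions of all 3 lists and 92 from the Oct4+ and DP lists. These regions included 14 naive pluripotency genes, Nanog, Sox2, Klf2, Zfp42 and Tdgf1 among them. Among their 3477 strongest peaks, Oct4+ replicates 1 to 4 marked 67, 44, 56 and 65 of the 538 regions and each of the 6 other libraries marked 0. The rule favors these values of 0, since the 538 regions had to be missing from the DP and Pdgfra+ lists, so they are not separate support.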

How the data were processed

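H3K4me3 CUT&Tag peaks of 10 libraries were used: 4 Oct4+, 3 DP and 3 Pdgfra+ nEnd, grouped by the labels. Per the labels and methods, the authors aligned reads with Bowtie2, called peaks against IgG with SEACR (stringent) and merged replicates into consensus lists; the submitters' notes also name SAMtools 1.12 and bedtools 2.26.0. The deposited peak values are total signal and highest coverage, not scaled between libraries, so only ranks within a library were compared. Annotation was GRCm38. Regions of the 3 consensus lists sharing 1 base were joined. Promoters were 1000 bp upstream to 100 bp downstream of 54361 start sites. Read depth is unknown. Python 3.11.15, pandas 2.3.3, scipy 1.17.1 and pysam 0.24.0 were used, and the scripts were tested on simulated data. Counts of all promoter regions in DP and Pdgfra+ libraries were compared by exact permutation; the same test on the Oct4+-only regions is not read, since the rule capped those counts. By replicate number r was 0.065, -0.338 and 0.161, which cannot show whether libraries of the same number were paired. The members and lists were chosen with earlier results of these data known. Regions were named by lowest percentile, gene list, width, the edges of the rule, absence from Oct4+ replicate 3, another marked start, or several promoters. Alternatives changed the window, joining, consensus, peak number, rank measure and libraries.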

Additional observations from a re-analysis of the deposited data

Results flagged for a closer look

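In the 27 named regions with a peak in all 4 Oct4+ libraries, 4 had a percentile in Oct4+ replicate 3 that lay far from the other 3, with a gap beyond the 95% critical value of Dixon's test for 4 samples: Foxd3 at 5.72, Myo10 at 36.7, Nr5a2 at 13.7 and Trh at 48.6. Chance alone gives about 1 in 20 groups. Percentiles come from lists of 3477 to 9144 peaks, and replicate 3 has the shortest. Counted from the strongest peak of each library, a scale chosen after seeing the data, only Nr5a2 of these 4 was still beyond it, at places 348, 758, 3000 and 742 in replicates 1 to 4. Places in replicate 3 cannot exceed 3477, which limits how far from the top its peaks can lie. Zmynd8 and B4galnt4 were beyond it by place and not by percentile, through replicates 2 and 1.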

How the results depend on the processing

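The number of Oct4+-only promoter regions was 254 when no DP or Pdgfra+ library could have a peak and 56 when all 4 Oct4+ libraries had to. Leaving out 1 library gave 137 to 700 regions, with 137 without Oct4+ replicate 1, 138 without Oct4+ replicate 2 and 700 without DP replicate 2. It was 531 to 603 with the wider window, a start site inside the region, a consensus of all 4 Oct4+ libraries, joining within 1000 bp, equal peak numbers or, chosen after seeing the data, all transcripts (578). At equal peak numbers only 54 regions were shared. The share with a peak in Oct4+ replicate 3 was 41.2% among regions in replicates 1, 2 and 4 (73.0% for regions of all 3 lists), and 6.88% when the peak had to cover 50% of the region. Median width was 3147 bp by the peaks of Oct4+ replicate 2. Ranking by highest coverage lowered 50 of 55 named regions and raised 5, and 42 moved by more than the SD over Oct4+ libraries. By place from the strongest peak instead of percentile, also chosen after seeing the data, 3 named regions had an outlying Oct4+ library instead of 4, with 1 in both.

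The DP minus Pdgfra+ difference was -39.7 regions with the replicate block too, and whether replicate numbers pair the samples is unknown. The rule capped both counts, so no test is read from them. Leaving out 1 library gave -89 to 52.3, and only leaving out Pdgfra+ replicate 1 reversed it. Equal peak numbers gave no value, since the 6 libraries had 0 such regions. Read depth is unknown, so no limit of detection is given.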

Other observations

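Transporter and channel genes were present among the Oct4+-only promoters. Solute carrier genes made up 22 of the 572 genes (3.85%), beside 1.58% of the genes with a promoter in the Oct4+ list and 1.76% of all protein-coding genes, and potassium channel genes 7 (1.22%), beside 0.175% and 0.43%. Zinc finger genes made up 13 (2.27%), beside 2.39% and 1.95%. These families were chosen after the genes were seen, and the shares are a description without a test. Chromosome X held 16 of the 538 regions (2.97%), with Nr0b1 and Nexmif among them, beside 1.95% of the promoter regions of the Oct4+ list. The share was higher for regions of the Oct4+ and DP lists (3.31% of 332) and of the Oct4+ and Pdgfra+ lists (12.5% of 32).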
